A study of Mus musculus with 2 samples.

Results

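The genes described here are 43 components of cyclic AMP signalling, the route by which glucagon and adrenaline act on the liver, out of 23284 genes in the count tables. They were taken from a list of gene names that runs from the receptors at the cell surface to the enzymes that make, sense and destroy cyclic AMP. The libraries came from primary hepatocytes of C57BL/6 mice, the cells of liver parenchyma kept in culture. One culture received lentivirus expressing an shRNA against JMJD3, the histone H3 lysine 27 demethylase encoded by Kdm6b. The other received control lentivirus, and its sample label also carries the words wild type. Each group was 1 library from cells pooled from 5 mice, so no difference below has a replicate check. Both cultures were plated in medium with 10% serum, infected 24 h later for 48 h, and then given 5 mM glucose and 10 µM forskolin for 6 h to imitate fasting. Forskolin activates most adenylyl cyclases directly, so cyclic AMP signalling was stimulated in both cultures without a hormone, and no unstimulated culture was analysed here. The labels do not state the shRNA sequence, the age of the mice or how pure the hepatocytes were.

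In hepatocytes, glucagon binds its receptor, the receptor activates the stimulatory G protein Gs, and Gs switches on adenylyl cyclases in the plasma membrane. The cyclic AMP they make releases the catalytic subunits of protein kinase A (PKA) from their regulatory subunits and activates the Epac exchange factors. Phosphodiesterases hydrolyse cyclic AMP and end the signal, and A-kinase anchoring proteins (AKAPs) hold PKA at particular places in the cell. In the fasted liver this pathway promotes glucose output and fat use.

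The library of JMJD3 shRNA held 18334366 counts over 16282 genes and that of control lentivirus 11099562 counts over 15856 genes. Kdm6b had 598 counts in the JMJD3 shRNA library and 1019 in the control library, a log2 ratio of -1.46 (95% interval -1.60 to -1.31). Hepatocyte markers were present in both libraries, but their summed level was 4165 RPKM in the JMJD3 shRNA library and 8037 RPKM in control, where RPKM is the gene's CPM, its counts out of 1000000 scaled counts, divided by its exon length in kilobases. Of the 10 hepatocyte markers, 7 were lower in the JMJD3 shRNA library by the size rule given below and 0 higher. Among all measured genes 12.8% were lower and 15.3% higher. The markers did not differ evenly. Fgb stood at 538 RPKM with JMJD3 shRNA and 2535 RPKM in control, and Trf at 1824 RPKM with JMJD3 shRNA and 1836 RPKM in control. Trf, Apoa1 and Hnf4a did not pass. Fabp1 and Cyp2e1, both highly expressed in intact liver, were almost undetected, Fabp1 with 2 counts in each and Cyp2e1 with 0 in each. Summed markers of macrophages stood at 20.1 RPKM in the JMJD3 shRNA library and 18.7 RPKM in control, with Clec4f and Cd163 at 0 in both. Summed markers of endothelial cells stood at 14.2 RPKM in the JMJD3 shRNA library and 14.9 RPKM in control, with Stab2 and Lyve1 lower and Oit3 higher among 8 measured. Those of stellate cells and fibroblasts stood at 75.3 RPKM in the JMJD3 shRNA library and 73.1 RPKM in control, with 3 of 9 measured markers lower, Reln, Dcn and Pdgfrb, and 0 higher. The cholangiocyte list, dominated by Spp1, stood at 4991 RPKM in the JMJD3 shRNA library and 4816 RPKM in control, with 3 of 7 measured markers higher, Krt7, Krt19 and Sox9. A lower CPM can stem from fewer cells of a type or from less of the RNA per cell, and the libraries cannot tell these apart. The part of cell make-up in the results below was not tested.

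A gene was taken as measured when its CPM averaged at least 1 over both libraries, and 36 of the 43 genes were. The size rule asked of a measured gene that JMJD3 shRNA over control differ from 1 by at least 1.5-fold, with an exact 95% counting interval that excluded 1. By this rule 11 of 36 measured genes were lower, where 12.8% of all 12607 measured genes were lower, and 6 were higher, where 15.3% of all measured genes were higher. With 2-fold in place of 1.5-fold, 10 were lower, where 6.19% of all measured genes were, and 4 were higher, where 7.35% of all measured genes were. The median log2 ratio of the 36 genes was -0.22, and that of all measured genes was -0.00 with a standard deviation of 0.84 over genes. Ratios of the 36 genes spread more widely, with a standard deviation of 1.32. Counting error at low counts is part of both spreads, and genes of like abundance were not compared. Of the measured genes, 3 were under 1 CPM in one of the libraries, namely Adra1b and Pde1b in control and Adcy2 in the JMJD3 shRNA library, and so entered through the library where they were more abundant. The remaining 7 genes were Adrb1, Adcy4, Adcy8, Pkib, Pde1a, Pde3a and Pde7b, whose counts ran from 0 to 19 in either library.

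**Figure D1:**
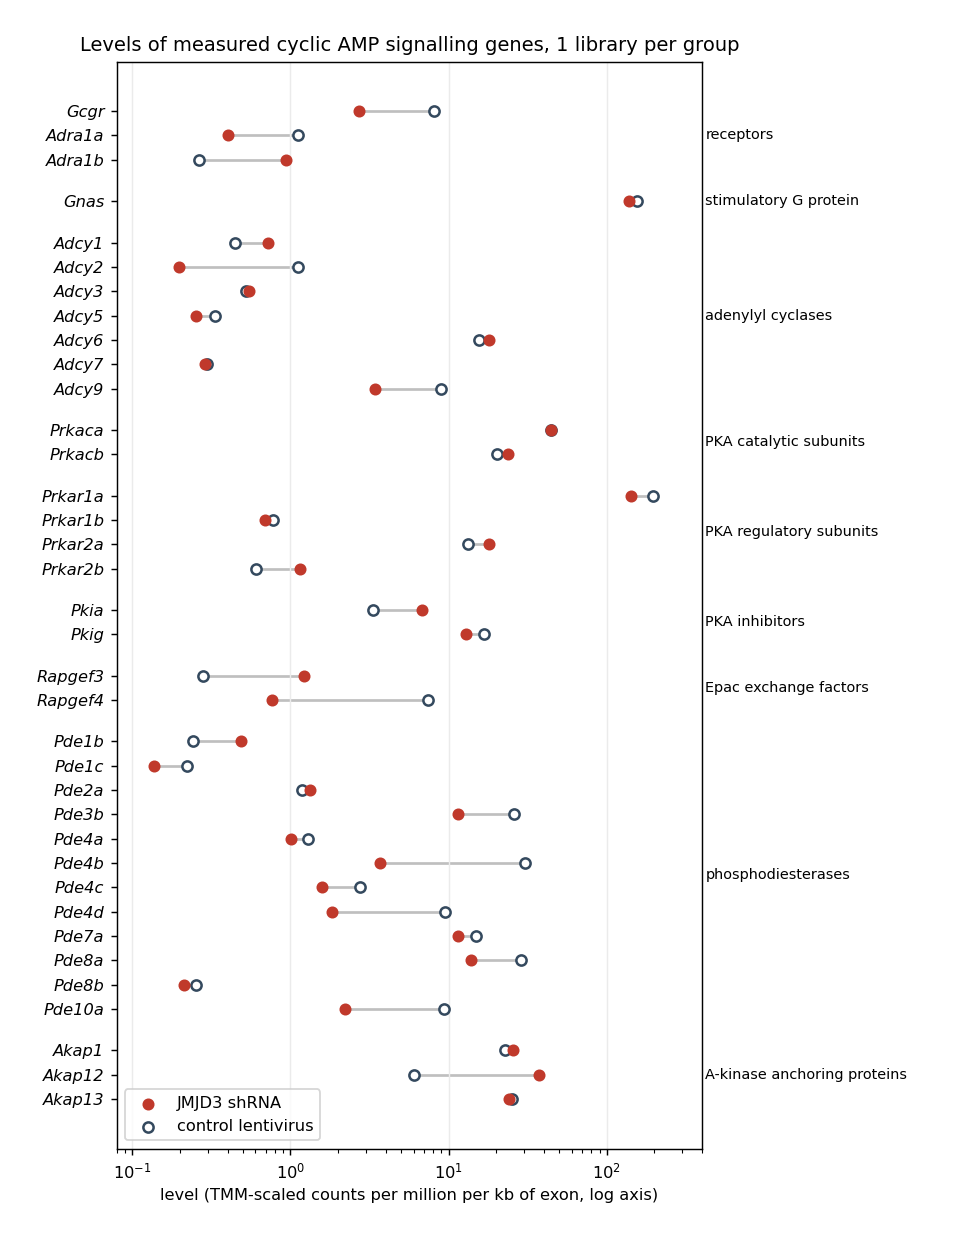
Levels of the 36 measured genes in the JMJD3 shRNA library (filled) and the control library (open), in RPKM on a log axis, 1 library per group, ordered by role. Prkar1a and Gnas sit highest in both libraries, and the widest gaps are those of Rapgef4, Pde4b and Akap12.

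The hormone receptors were scarce and most differed. Gcgr, the glucagon receptor, which couples to Gs, had 95 counts in the JMJD3 shRNA library and 174 in control, or 2.72 RPKM in the JMJD3 shRNA library and 8.03 RPKM in control. Its log2 ratio was -1.56 (-1.94 to -1.19), which is 2.95-fold lower. In the mm9 build of the files the gene is on chromosome 11, 120392041 to 120400298, plus strand, with 14 annotated exon entries. The alpha-1 adrenergic receptors, which signal mainly through Gq and calcium and not through cyclic AMP, moved in opposite directions. Adra1a was lower, at 0.4005 RPKM with JMJD3 shRNA and 1.12 RPKM in control, from 30 counts with JMJD3 shRNA and 52 in control (log2 -1.48, -2.18 to -0.81). Adra1b, the main alpha-1 receptor of rodent hepatocytes, was higher, with 52 counts in the JMJD3 shRNA library and 9 in control (log2 1.84, 0.81 to 3.05). Per kilobase, Gcgr made up 65.2% of the summed level of the 4 receptors in the JMJD3 shRNA library and 82.8% in control. The beta-1 receptor Adrb1 was not measured, with 5 counts in the JMJD3 shRNA library and 8 in control.

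Gnas, which encodes the alpha subunit of Gs, was the second most abundant gene of the group in both libraries. It stood at 138 RPKM in the JMJD3 shRNA library and 156 RPKM in control, a log2 ratio of -0.17 (-0.21 to -0.13) that did not pass the size rule. Its first exons overlap those of the antisense gene Nespas, and strand was not used in counting, so reads from that stretch cannot be assigned.

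Adenylyl cyclases make cyclic AMP from ATP, and their isoforms differ in how calcium, G-protein subunits and forskolin act on them. Adcy6, an isoform inhibited by calcium, was the most abundant in both libraries, at 17.9 RPKM with JMJD3 shRNA and 15.6 RPKM in control (log2 0.20, 0.09 to 0.31), and did not pass. Adcy9, the isoform known to respond weakly or not at all to forskolin, was lower, at 3.41 RPKM with JMJD3 shRNA and 9.003 RPKM in control. Its log2 ratio was -1.40 (-1.62 to -1.18), from 275 counts in the JMJD3 shRNA library and 451 in control. Adcy2, an isoform stimulated by G-protein beta-gamma subunits, was lower at log2 -2.51 (-3.44 to -1.66), on 15 counts with JMJD3 shRNA and 53 in control. Adcy1, a calmodulin-stimulated isoform best known from neurons, was higher at log2 0.70 (0.27 to 1.15), on 160 counts with JMJD3 shRNA and 61 in control. With the dependence of the ratio on exon length removed, Adcy1, whose exons sum to 12258 bp, was at 0.19 and no longer passed. The remaining measured cyclases were scarce, and their intervals included a ratio of 1. Adcy3 had 47 counts with JMJD3 shRNA and 28 in control (log2 0.06, -0.65 to 0.79), and its last exons overlap those of Cenpo. Adcy5, a calcium-inhibited isoform, had 23 counts with JMJD3 shRNA and 19 in control (log2 -0.41, -1.35 to 0.55). Adcy7 had 33 counts with JMJD3 shRNA and 21 in control, a log2 ratio of -0.04. Adcy4, with 14 counts in the JMJD3 shRNA library and 12 in control, and Adcy8, with 0 in the JMJD3 shRNA library and 3 in control, were not measured.

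The sum over all 9 cyclases differed less than Adcy9 or Adcy2 did. It was 23.6 RPKM in the JMJD3 shRNA library and 27.7 RPKM in control, a log2 ratio of -0.23 (-0.32 to -0.14). Adcy6 made up 76.1% ± 1.8 of that sum with JMJD3 shRNA and 56.3% ± 2.4 in control, where ± is the 95% counting interval. Adcy9 made up 14.5% ± 1.6 with JMJD3 shRNA and 32.5% ± 2.4 in control.

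Neither catalytic subunit of PKA passed the size rule. Prkaca, the catalytic subunit with the higher level per length, stood at 44.6 RPKM with JMJD3 shRNA and 44.3 RPKM in control. Its log2 ratio was 0.01 (-0.10 to 0.12). Prkacb, the other catalytic subunit measured here, stood at 23.7 RPKM with JMJD3 shRNA and 20.3 RPKM in control (log2 0.22, 0.12 to 0.33). By counts with no correction for length, Prkacb made up 54.1% of the catalytic subunits with JMJD3 shRNA and 50.3% in control. Among regulatory subunits, which hold the catalytic subunits inactive until cyclic AMP binds, Prkar1a was the most abundant gene of the group. It had 143 RPKM with JMJD3 shRNA and 195 RPKM in control, and its log2 ratio of -0.45 (-0.49 to -0.40) excluded 1 but fell short of 1.5-fold. Prkar2a, a regulatory subunit that binds AKAPs tightly, stood at 18.0 RPKM with JMJD3 shRNA and 13.2 RPKM in control (log2 0.44, 0.30 to 0.58), also short of 1.5-fold. Prkar2b passed as higher at log2 0.92 (0.22 to 1.67), on 70 counts with JMJD3 shRNA and 23 in control. With the counts halved, as if each read pair had been counted once, Prkar2b was at 0.86. That was still above 1.5-fold, but the wider interval included a ratio of 1, so Prkar2b no longer passed. Prkar1b, a form best known from brain, was at log2 -0.19 (-0.98 to 0.63), on 34 counts with JMJD3 shRNA and 24 in control. By share of the regulatory subunits, Prkar1a made up 87.9% with JMJD3 shRNA and 93.0% in control, and Prkar2a 11.02% with JMJD3 shRNA and 6.31% in control.

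PKA inhibitor peptides bind the free catalytic subunit as pseudosubstrates and carry it out of the nucleus. Pkia was higher, at 6.81 RPKM with JMJD3 shRNA and 3.33 RPKM in control, a log2 ratio of 1.03 (0.75 to 1.32) from 454 counts with JMJD3 shRNA and 138 in control. Pkig, the more abundant of the inhibitors per length in both libraries, stood at 12.9 RPKM with JMJD3 shRNA and 16.8 RPKM in control (log2 -0.39, -0.63 to -0.15) and did not pass. By counts with no correction for length Pkig made up 42.2% of the inhibitors with JMJD3 shRNA and 66.2% in control, so that Pkia led with JMJD3 shRNA. Pkib had 0 counts in both libraries, under a floor of 3 counts that equals 0.166 CPM with JMJD3 shRNA and 0.267 CPM in control. The summed level of the inhibitors was 19.7 RPKM with JMJD3 shRNA and 20.2 RPKM in control, a log2 ratio of -0.04 (-0.22 to 0.15).

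The Epac genes, which encode cyclic AMP-activated exchange factors for the small GTPase Rap, moved in opposite directions. Rapgef4 (Epac2) had 110 counts with JMJD3 shRNA and 653 in control, or 0.769 RPKM with JMJD3 shRNA and 7.36 RPKM in control. Its log2 ratio was -3.26 (-3.56 to -2.96), which is 9.56-fold lower, and 0.769% of all measured genes had a lower ratio. Rapgef3 (Epac1) had 85 counts with JMJD3 shRNA and 12 in control, or 1.22 RPKM with JMJD3 shRNA and 0.278 RPKM in control (log2 2.14, 1.26 to 3.14). The summed level of both was 1.99 RPKM with JMJD3 shRNA and 7.64 RPKM in control, a log2 ratio of -1.94 (-2.18 to -1.70). Rapgef4 made up 38.6% ± 6.7 of it with JMJD3 shRNA and 96.4% ± 2.0 in control. Without the correction for exon length, the share of counts was 56.4% with JMJD3 shRNA and 98.2% in control. In mm9, Rapgef4 is on chromosome 2, 71819272 to 72095531, plus strand, with 32 exon entries. Rapgef3 is on chromosome 15, 97575201 to 97598097, minus strand, with 28 exon entries.

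**Figure D2:**
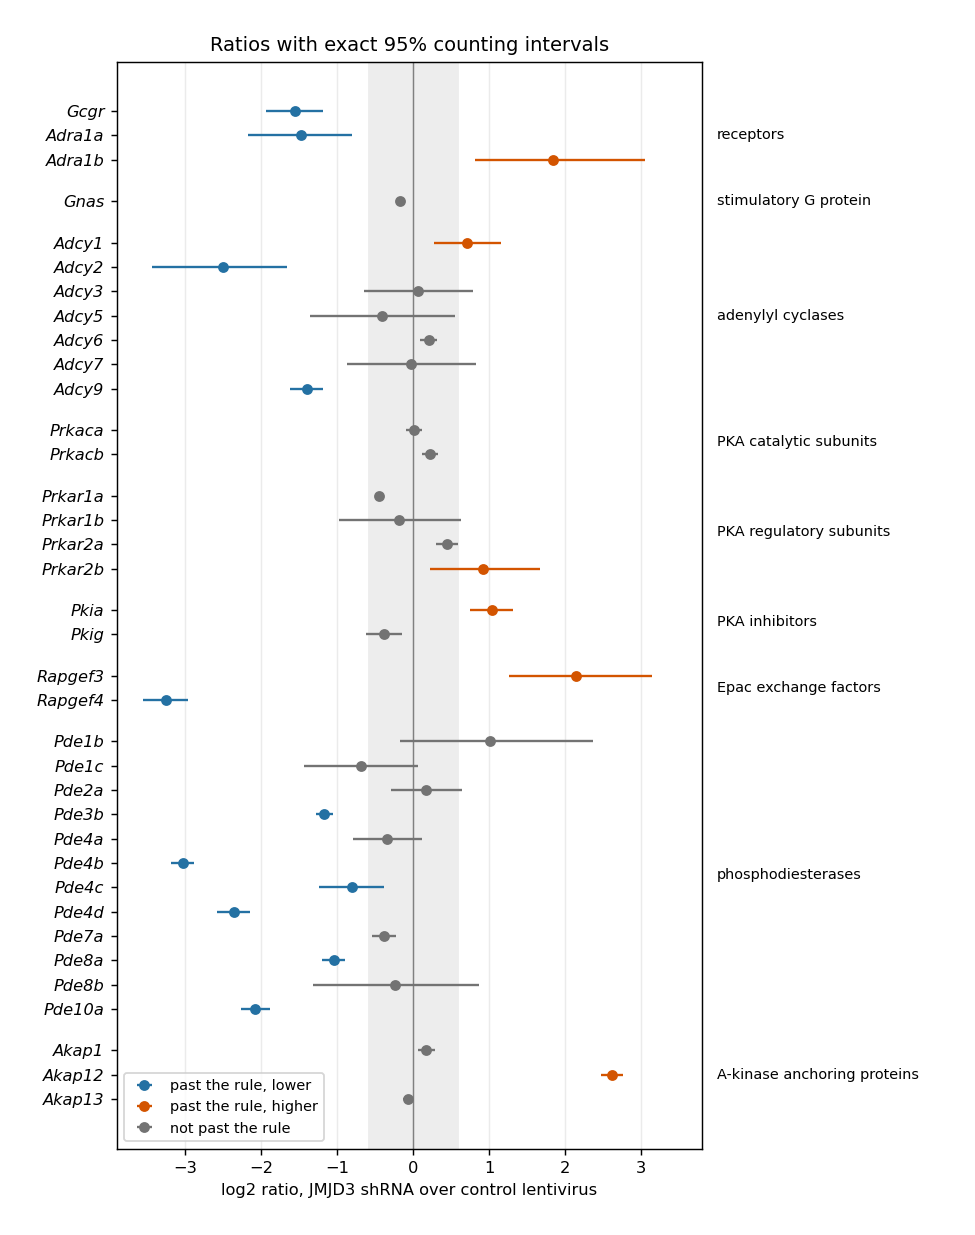
Log2 ratios of JMJD3 shRNA over control for the 36 measured genes, with exact 95% intervals from the counts. The shaded band marks ratios within 1.5-fold of 1. Of the 12 measured phosphodiesterases 6 lie below the band and pass, and 0 pass above it. Among all measured genes 12.8% passed as lower and 15.3% as higher.

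Phosphodiesterases were the largest family and, by number, the one with the most genes lower. By share of measured genes the receptors had more lower, 2 of 3. Of 15 genes 12 were measured, and 6 of these passed as lower and 0 as higher, beside 12.8% lower and 15.3% higher among all measured genes. Of the 12 ratios 10 were below 1, where 6339 of all 12607 measured genes had a ratio below 1. The median log2 ratio of the 12 was -0.75. Summed over all 15, the level was 49.7 RPKM with JMJD3 shRNA and 124.9 RPKM in control, a log2 ratio of -1.33 (-1.39 to -1.27). The cyclic AMP-specific PDE4 enzymes, a major group of cyclic AMP-degrading phosphodiesterases, summed to 8.11 RPKM with JMJD3 shRNA and 43.7 RPKM in control, a log2 ratio of -2.43 (-2.55 to -2.32).

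Pde4b had the lowest ratio of the family. It had 402 counts with JMJD3 shRNA and 2048 in control, or 3.68 RPKM with JMJD3 shRNA and 30.2 RPKM in control, with a log2 ratio of -3.04 (-3.19 to -2.88), which is 8.21-fold lower. Among the 43 genes it stood at position 15 by level with JMJD3 shRNA and at position 4 in control, and 0.896% of all measured genes had a lower ratio. Pde4b is on chromosome 4 in mm9, 101927347 to 102279867, plus strand, with 18 exon entries. Pde4d was at log2 -2.36 (-2.58 to -2.15), with 1.84 RPKM in the JMJD3 shRNA library and 9.47 RPKM in control, from 235 counts with JMJD3 shRNA and 750 in control. Pde4b and Pde4d each have short forms whose transcription is known to be raised by cyclic AMP in several cell types, and gene counts do not separate the forms. Pde4c was lower at log2 -0.81 (-1.24 to -0.38), on 91 counts with JMJD3 shRNA, the deeper library, and 99 in control. It passed at 1.5-fold and not at 2-fold. Pde4a was at -0.34 (-0.80 to 0.12), with 1.01 RPKM in the JMJD3 shRNA library and 1.28 RPKM in control.

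Pde10a, which hydrolyses both cyclic AMP and cyclic GMP and is best known from the striatum, was lower at log2 -2.08 (-2.27 to -1.89). It had 310 counts with JMJD3 shRNA and 812 in control, or 2.22 RPKM with JMJD3 shRNA and 9.36 RPKM in control. Pde3b, the phosphodiesterase that insulin activates in hepatocytes and fat cells, was lower at log2 -1.17 (-1.28 to -1.06), with 11.5 RPKM in the JMJD3 shRNA library and 25.9 RPKM in control. Pde8a, a high-affinity cyclic AMP-specific enzyme, was lower at log2 -1.05 (-1.20 to -0.90), with 13.8 RPKM in the JMJD3 shRNA library and 28.6 RPKM in control. Pde3b and Pde8a were the most abundant of the lower phosphodiesterases in the JMJD3 shRNA library, each with at least 672 counts in either library. The summed hepatocyte markers were also lower in the JMJD3 shRNA library, at 4165 RPKM against 8037 RPKM in control. Single markers ran from log2 -5.85 for Cps1 to -0.01 for Trf. The part of hepatocyte content in the phosphodiesterase values was not tested.

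The other phosphodiesterases did not pass the size rule. Pde7a, a further high-affinity cyclic AMP-specific enzyme, stood at 11.4 RPKM with JMJD3 shRNA and 14.9 RPKM in control (log2 -0.38, -0.54 to -0.22). Pde2a, which cyclic GMP stimulates, was at log2 0.17 (-0.30 to 0.64), on 112 counts with JMJD3 shRNA and 62 in control. Pde1b, which calmodulin activates, had 26 counts with JMJD3 shRNA and 8 in control (log2 1.01, -0.17 to 2.37). Pde1c, of the same calmodulin-activated group, had 32 counts in each library (log2 -0.69, -1.44 to 0.07). With the exon-length trend removed, Pde1c, whose exons sum to 12826 bp, was at -1.21 and passed as lower. Pde8b, a close relative of Pde8a, was at log2 -0.25 (-1.32 to 0.86), on 19 counts with JMJD3 shRNA and 14 in control. Pde1a had 19 counts with JMJD3 shRNA and 7 in control, Pde3a 9 with JMJD3 shRNA and 2 in control, and Pde7b 9 with JMJD3 shRNA and 14 in control, and none of these was measured. As a share of the family, Pde4b made up 7.40% ± 0.71 with JMJD3 shRNA and 24.2% ± 1.0 in control, while Pde7a made up 23.0% ± 1.4 with JMJD3 shRNA and 11.9% ± 0.9 in control. Pde8a had the highest share with JMJD3 shRNA, 27.8% ± 1.7, while in control it made up 22.9% ± 1.3, an interval that overlaps that of Pde4b. This order depends on the correction for exon length. By counts alone, Pde3b led with JMJD3 shRNA at 28.4%, beside 17.3% for Pde8a. In control Pde4b led by counts at 29.5%, beside 12.4% for Pde8a.

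**Figure D3:**
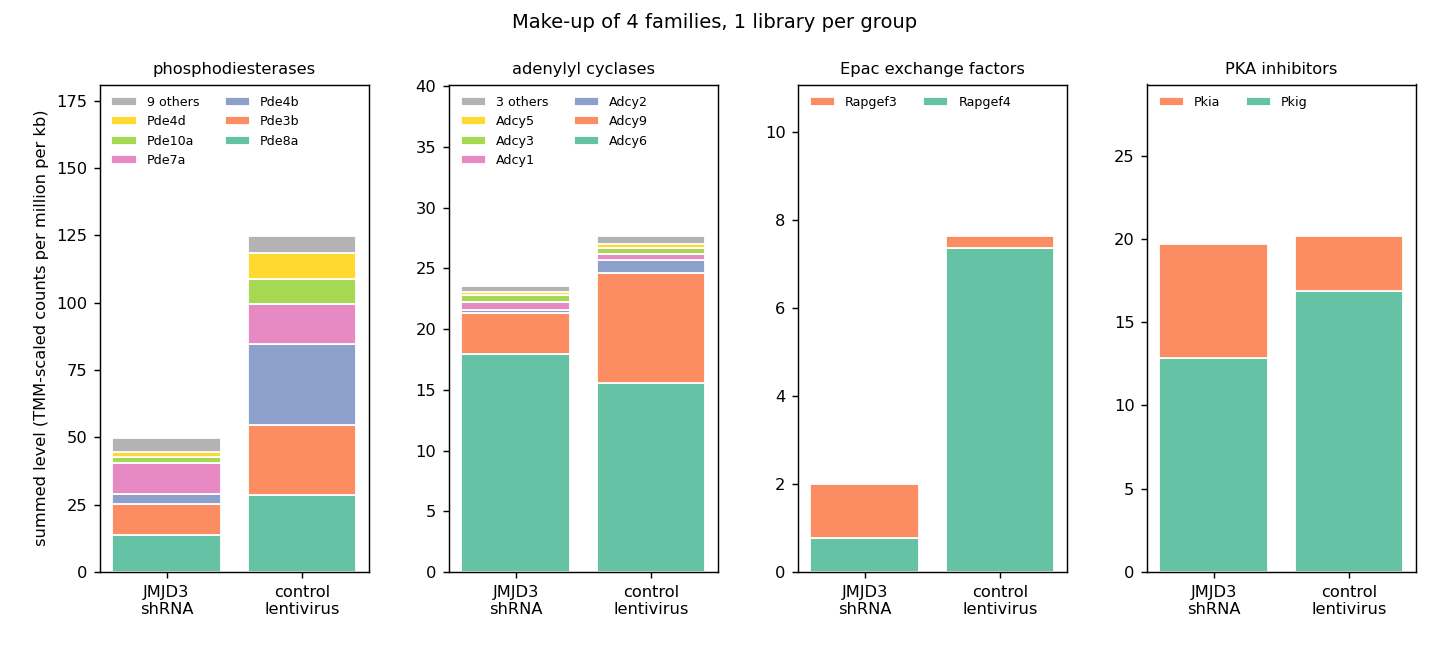
Summed RPKM of 4 families in the JMJD3 shRNA library (left bar of each panel) and the control library (right bar), divided by gene, with 1 library per group and a different axis in each panel. The phosphodiesterase bar reaches 49.7 with JMJD3 shRNA and 124.9 in control, and Rapgef4 makes up 38.6% of the Epac bar with JMJD3 shRNA and 96.4% in control.

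Of the 3 AKAPs, Akap12 alone passed the size rule. Akap12 (gravin), a scaffold for PKA, protein kinase C and beta-adrenergic receptors, had 4202 counts with JMJD3 shRNA and 427 in control, or 37.1 RPKM with JMJD3 shRNA and 6.08 RPKM in control. Its log2 ratio was 2.61 (2.47 to 2.76), a 6.11-fold higher level, and 0.579% of all measured genes had a higher ratio. By level among the 43 genes it stood at position 4 with JMJD3 shRNA and at position 19 in control. Akap12 is on chromosome 10 in mm9, 5987070 to 6080212, minus strand, with 4 exon entries. Akap1, which anchors PKA to the outer mitochondrial membrane, stood at 25.6 RPKM with JMJD3 shRNA and 22.7 RPKM in control (log2 0.17, 0.06 to 0.29). Akap13 stood at 24.2 RPKM with JMJD3 shRNA and 25.3 RPKM in control (log2 -0.07, -0.13 to -0.01). Neither passed the size rule. With the exon-length trend removed, Akap13, whose exons sum to 12543 bp, was at -0.58, just short of 1.5-fold. Akap12 made up 42.8% ± 1.0 of the summed level of these 3 genes with JMJD3 shRNA and 11.2% ± 1.0 in control.

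**Figure D4:**
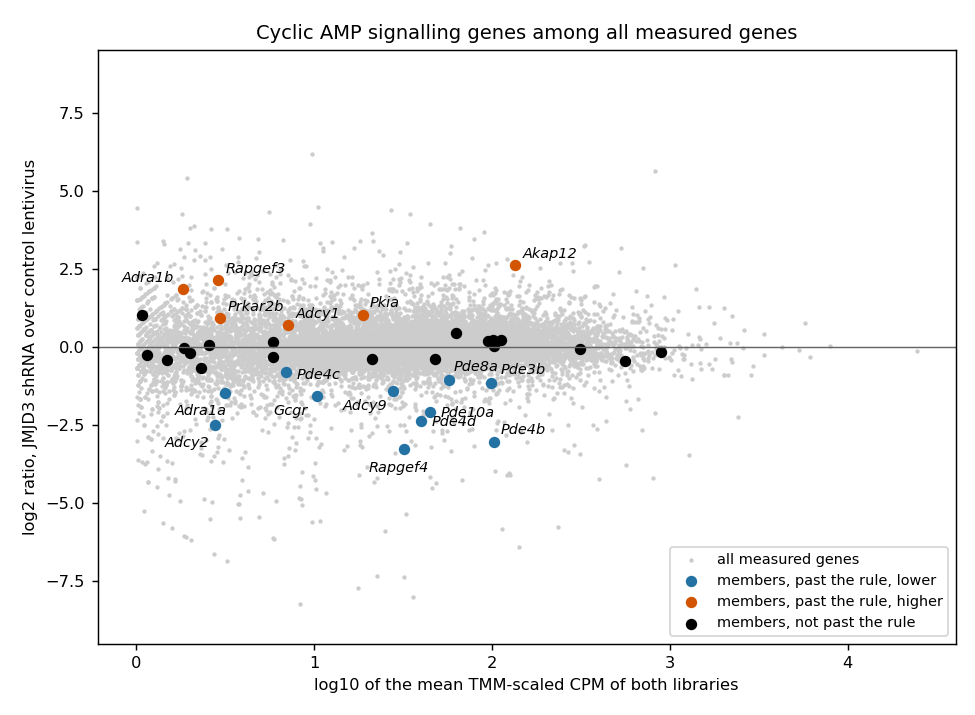
Log2 ratio of JMJD3 shRNA over control against the log10 of mean CPM for all 12607 measured genes (grey) and the 36 measured cyclic AMP signalling genes (coloured by the size rule). Rapgef4 at -3.26 and Pde4b at -3.04 are the lowest of the coloured points and Akap12 at 2.61 the highest, and other genes lie beyond them in both directions.

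The authors' deposited table lists 39 of the 43 genes with adjusted p-values, and how a p-value was obtained from 1 library per group is not stated. Of those 39 genes in the authors' deposited table, 11 were lower and 4 higher at an adjusted p-value under 0.05, where 11.8% of all 12838 genes in it were lower and 14.6% higher. All 15 also passed the size rule, but both describe the same libraries, so this is no independent check. In the authors' deposited table the log2 fold change of Pde4b was -3.04 with an adjusted p-value of 8.09e-37, that of Rapgef4 was -3.26 with 1.88e-34, and that of Akap12 was 2.61 with 1.16e-28. Adcy1 and Prkar2b passed the size rule but had adjusted p-values of 0.0706 and 0.0767 in the authors' deposited table.

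The cyclic AMP response element TGACGTCA, bound by CREB family factors, and its core TGACG were sought on both strands in RefSeq promoter windows of the GRCm38.p6 build, which run from 250 bases before to 50 bases after a start site. Of the 43 genes 35 were in that table, with 81 windows, since many have several starts. Adcy6, Adcy8, Adra1a, Akap12, Pde3a, Pde3b, Pde7a and Pkia were not in it. The full element was in 2 of 81 windows (2.47%), both of Prkar1a, and in 1.79% of all 32851 windows. The 2 Prkar1a windows overlap and hold the same site, so the 2.47% rests on 1 element. The core, which the full element holds on either strand, was in 25.9% of these windows and in 20.8% of all windows. Among genes past the size rule, 4 of 13 in the table had the core in at least 1 window, and among measured genes not past it, 11 of 17. By gene, 48.6% of the 35 and 23.0% of all 27025 genes in the table had it. A gene with more windows has more places to hold the core. The 35 genes had 81 windows and all 27025 genes had 32851, so the shares by gene are not on a like footing. Windows per gene were not matched for the 4 of 13 and 11 of 17 either. The 4 genes past the size rule with the core were Pde4b, Pde8a and Adcy9, which were lower, and Rapgef3, which was higher. The single listed windows of Pde4d, Rapgef4 and Gcgr and both windows of Pde10a did not hold these letters. Nor did the windows of Adcy2 and Pde4c, also lower, or those of Adcy1, Adra1b and Prkar2b, which were higher. Start sites outside the listed windows were not searched.

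The windows of those 4 genes and 1 of Prkar1a are printed 5′ to 3′ on the strand of the gene, with the core or the full element in capitals, to show where it sits in the 4 genes with the core that passed the size rule and in Prkar1a, which did not pass but alone holds the full element. The Pde4b window is 1 of 4 for that gene, at chr4:102421305-102421604 on the plus strand, and its core begins at -34 from the start site. The Pde8a window is chr7:81213015-81213314 on the plus strand, with the core at -84. The Adcy9 window is chr16:4420449-4420748 on the minus strand, with the core at -24. The Rapgef3 window is chr15:97767617-97767916 on the minus strand, with the core at -191. The Prkar1a window is chr11:109650699-109650998 on the plus strand, with a core at -187 and the full element from -49.
Pde4b: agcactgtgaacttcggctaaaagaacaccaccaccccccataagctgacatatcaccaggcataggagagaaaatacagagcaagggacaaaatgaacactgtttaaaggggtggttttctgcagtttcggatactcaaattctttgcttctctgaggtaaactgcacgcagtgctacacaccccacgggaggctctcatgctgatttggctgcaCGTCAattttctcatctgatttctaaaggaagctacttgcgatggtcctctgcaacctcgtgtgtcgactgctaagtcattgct
Pde8a: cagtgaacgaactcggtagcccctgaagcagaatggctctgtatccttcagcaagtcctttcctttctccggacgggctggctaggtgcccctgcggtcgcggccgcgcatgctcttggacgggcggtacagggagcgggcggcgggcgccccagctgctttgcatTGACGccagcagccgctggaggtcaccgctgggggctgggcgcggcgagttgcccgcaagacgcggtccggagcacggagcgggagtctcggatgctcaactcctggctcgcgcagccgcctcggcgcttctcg
Adcy9: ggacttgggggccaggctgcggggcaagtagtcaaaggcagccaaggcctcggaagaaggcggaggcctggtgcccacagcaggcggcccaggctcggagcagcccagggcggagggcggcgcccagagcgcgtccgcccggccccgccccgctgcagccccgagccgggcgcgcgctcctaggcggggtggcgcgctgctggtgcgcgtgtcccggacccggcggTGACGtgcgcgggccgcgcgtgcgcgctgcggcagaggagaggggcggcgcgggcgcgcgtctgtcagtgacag
Rapgef3: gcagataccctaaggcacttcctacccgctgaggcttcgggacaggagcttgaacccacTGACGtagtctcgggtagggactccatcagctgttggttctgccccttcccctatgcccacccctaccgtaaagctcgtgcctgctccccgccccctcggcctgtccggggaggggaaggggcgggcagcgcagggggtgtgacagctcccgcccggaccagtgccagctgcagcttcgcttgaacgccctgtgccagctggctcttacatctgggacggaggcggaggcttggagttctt
Prkar1a: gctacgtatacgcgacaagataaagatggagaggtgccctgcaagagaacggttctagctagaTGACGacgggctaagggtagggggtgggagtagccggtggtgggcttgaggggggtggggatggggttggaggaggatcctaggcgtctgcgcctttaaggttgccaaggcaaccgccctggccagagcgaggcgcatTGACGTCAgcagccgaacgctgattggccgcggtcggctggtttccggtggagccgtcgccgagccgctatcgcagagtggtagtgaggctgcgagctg

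Beyond the 43 genes, 68 further genes of the pathway were listed, of which 36 were measured. By the size rule 6 of these were lower and 6 higher, beside 12.8% and 15.3% of all measured genes, with a median log2 ratio of 0.09. Of these, Sstr2, Adra2a and Rgs2 were under 1 CPM with JMJD3 shRNA and Cnr1 in control, so that they entered through the library where they were more abundant. Of 20 other Gs-coupled receptors only Adrb3 and Calcrl were measured, and neither passed. Their most abundant member was Adrb3, at 0.573 RPKM with JMJD3 shRNA and 0.605 RPKM in control (log2 -0.08), and Calcrl was at 0.67.

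Among receptors coupled to Gi, which inhibits adenylyl cyclase, or to Gq, 5 of 10 were measured and all 5 passed, 3 of them among the genes that entered through 1 library, where 12.8% of all measured genes were lower and 15.3% higher. Sstr2, a Gi-coupled somatostatin receptor, was lowest, with 9 counts with JMJD3 shRNA and 186 in control (log2 -5.06, -6.21 to -4.10). The alpha-2 adrenergic receptor Adra2a was at -2.94 (-3.97 to -2.02), on 12 counts with JMJD3 shRNA and 57 in control. Avpr1a, the vasopressin receptor of hepatocytes, which couples to Gq, was at -0.84 (-1.23 to -0.45). The adenosine receptor Adora1 was higher at 0.92 (0.66 to 1.18), though its exons overlap those of another gene and its reads may be shared. The cannabinoid receptor Cnr1 was higher at 3.36 (1.39 to 6.46), on 33 counts with JMJD3 shRNA and 2 in control. Scaled by library totals or by upper quartile, Cnr1 fell under the minimum of 1 CPM and was no longer measured, which left 5 of the other pathway genes higher.

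Of the 7 G protein genes other than Gnas, 6 did not pass. Gnai2 was the most abundant by the mean of both libraries, at 190 RPKM with JMJD3 shRNA and 178 RPKM in control (log2 0.10). In control Gnb2 stood slightly higher, at 181 RPKM. Gnai1 was highest and passed, at 0.69 (0.47 to 0.91), and Gna11 lowest at -0.15. Of the 7 genes of receptor desensitisation, the receptor kinase Grk5 was higher, at 24.9 RPKM with JMJD3 shRNA and 6.88 RPKM in control (log2 1.86, 1.66 to 2.06). Rgs2, which dampens G-protein signalling, was lower at -3.47 (-4.85 to -2.31), on 7 counts with JMJD3 shRNA and 48 in control. The most abundant of them by the mean of both libraries was the receptor kinase Adrbk1, which was at -0.05.

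Prkx, a cyclic AMP-regulated kinase related to the PKA catalytic subunits, was higher, at 24.5 RPKM with JMJD3 shRNA and 10.3 RPKM in control (log2 1.25, 1.08 to 1.42). Pde9a, which hydrolyses cyclic GMP, was lower at -1.05 (-1.67 to -0.44). Abcc4, which exports cyclic AMP, was the most abundant of its list, at 72.9 RPKM with JMJD3 shRNA and 56.2 RPKM in control, and did not pass at 0.38. Of 8 other measured anchoring proteins, Akap8l, a nuclear protein, passed as lower, at 29.0 RPKM with JMJD3 shRNA and 47.4 RPKM in control (log2 -0.71, -0.83 to -0.58). Akap8, a related nuclear anchor and the most abundant by the mean of both libraries, was at -0.02. The highest ratio was that of Akap9, a centrosome and Golgi scaffold, at 0.41. Of the Epac substrates, Rap1b was the most abundant and highest and passed at 0.71 (0.62 to 0.80), while Rap1a was at 0.07.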

How the data were processed

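Per the labels' protocols, each group had 1 RNA library, sequenced from both ends at 100 bp. The deposited counts are whole-number reads per gene, made by the authors with featureCounts 1.4.6-p4 without strand on UCSC mm9 gene models from STAR alignments, per the file headers. No option for counting pairs was recorded, so both reads of a pair may count and intervals are then too narrow. The aligner was STAR 2.5.3a and the trimmer Trimmomatic 0.36, per the submitters' processing notes, which also name edgeR. The deposited table by the authors holds log2 fold changes, average log2 CPM, p-values and adjusted p-values. Its sign matched the counts in 12607 of 12607 genes.

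Library totals multiplied by TMM factors (edgeR 4.0.16, R 4.3.3) set the scale. Intervals are exact conditional binomial (Clopper-Pearson, SciPy 1.17.1), those of sums and shares use the delta method, and all cover counting error only. The ratio carries no pseudocount. With 1 library per group no p-value was computed. RPKM divides scaled CPM by deposited exon length. The size rule was tried on simulated counts that held counting error only, so that trial could not show how the rule copes with variation between cultures. Alternatives changed the scaling, the filter, the fold, the exon-length trend, overlapping genes and the counting of pairs. The members, lists and rules were chosen with earlier results of these data known. All measured members were named, and in other lists the most abundant, highest, lowest and passing genes. Protein sequences were not used here.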

Additional observations from a re-analysis of the deposited data

How the results depend on the processing

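Of the 36 measured cyclic AMP signalling genes 11 passed as lower, where 12.8% of all measured genes did. That count ran from 9 of 24 with a minimum of 5 CPM to 12 of 41 with no filter. With the exon-length trend removed it was 12 of 36. The genes that passed as higher, 6 of 36 where 15.3% of all measured genes did, were 3 of 24 with the minimum of 5 CPM. Shares of all genes are not given for the 5 CPM minimum, no filter or the trend removed. The counts at those settings therefore do not show whether the group differed from all genes. Of the other pathway genes, 6 of 36 passed each way by the size rule. At 2-fold 3 of 36 passed as higher, where 7.35% of all measured genes did. With the minimum of 5 CPM 3 of 29 passed as lower. The median log2 ratio of the 36 genes ran from -0.42 with the length trend removed to -0.18 with counts halved, an alternative chosen after the data were seen. The scalings by library totals, DESeq2 (1.42.0) size factors and upper quartile left all 36 genes on their side of the size rule. At 2-fold Adcy1, Pde4c and Prkar2b no longer passed, and with the length trend removed Adcy6 was at -0.05. The length trend ran from -0.17 at the shortest measured gene of the group to 0.52 at the longest. The element TGACGTC on either strand was in 5.71% of the 35 genes with a promoter window, against 2.86% for the full element. Among all 27025 genes with a window these shares were 3.6% and 2.03%. By window, TGACGTC was in 3.7% of the 81, with the 1 site of Prkar1a counted in 2 overlapping windows, and in 3.21% of all 32851. With low counts, such as those of Adra1b, Adcy2 and Rapgef3, depth limits the ratio to wide intervals. No paired analysis was possible because each group has 1 library.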
